A study of Mus musculus with 6 samples.

Results

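The genes described here encode the subunits of the mouse proteasome and the proteins that assemble, activate or inhibit it. They were chosen by name, as the protein-coding genes whose symbols begin with Psma to Psmg followed by a number, leaving out Psmb8 and Psmb9. The rule found 48 of the 54532 genes in the count table, of which 22046 are protein-coding. By known roles, 17 encode the 20S core, 17 the 19S cap, 7 assembly factors, and 6 activators or the inhibitor. The last match, Psmc3ip, encodes a DNA recombination factor that shares only the name, and was kept apart. RNA was sequenced from AML12, an immortalized mouse hepatocyte line grown in culture, after 24 h of treatment. For 3 libraries the label was PA/OA, a reagent used to make the model, with PA given as 400 nM and OA as 800 nM by the submitters. For the other 3 it was PP, at 250 µg/ml. The labels give PP alone for these cells, and the design text does not settle whether they received PA/OA as well. Untreated cells were not analysed here. The series title concerns Camellia oleifera meal peptides and lipid metabolism and does not name the proteasome, so the comparison asks only how these genes differed between PP and PA/OA. No label ties the libraries of a group to separate cultures, so the spread behind each p-value is that of libraries and may be only technical.

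The proteasome degrades proteins that carry ubiquitin chains. Its core is a barrel of stacked rings, in which alpha subunits form the gate and some beta subunits carry the protease sites. The cap binds ubiquitin chains, removes them, and unfolds the substrate with a ring of ATPases. Dedicated chaperones guide the assembly of both, and other proteins, the activators, can open the core in place of the cap. The transcription factor encoded by Nfe2l1 is known to raise most subunit genes together when proteasome activity falls short.

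Depth was 24113169 to 26825673 counts per PA/OA library and 27418502 to 32560589 per PP library. Levels are given as CPM, counts scaled to a common library total, after TMM scaling over all genes, and, between genes, per kilobase of exon as well (RPKM). The keratin genes Krt8 and Krt18, typical of hepatocyte lines, were high in both groups, at 1775 and 975 CPM in PA/OA and 1994 and 1730 in PP. Hnf4a, a hepatocyte transcription factor, fell from 71.7 to 26.9 CPM. Albumin mRNA was low, at 12.2 and 9.90 CPM, and the plasma protein genes Ttr, Apoa1, Apoe and Trf stood at or below 5 CPM, so several defining products of liver cells were scarce. Of the 8 hepatocyte markers 2 were higher in PP and 3 lower, and their sum ran from 2770 to 2980 CPM in PA/OA and from 3640 to 4010 in PP. The part of these differences in the proteasome results was not tested. Summed markers of fibroblasts, immune cells and endothelial cells reached at most 2.04 CPM in any library, with Lum and Adgre1 at 0. Fewer cells of a kind and less RNA per cell cannot be told apart in such libraries.

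Proteasome genes did not move as 1 block between PA/OA and PP. Of the 45 members of the 4 classes that passed the filter on low counts, 22 were higher in PP, 14 were lower and 9 were not called by edgeR's quasi-likelihood test at an adjusted p under 0.05. Calls were common in this comparison, at 75.0% of the 15718 genes tested, with 35.1% higher and 39.9% lower, and the members' 36 calls are 80.0% of 45, near that background. The median log2 fold change of the members was 0.17, against -0.09 for all genes. The libraries of the groups did not overlap in 22 members higher in PP and in 14 lower. That is again 80.0% of the 45, where 77.4% of all genes tested had groups that did not overlap. The lower genes differ from those called, since Psme2b was called with overlapping groups and Psmf1 was not called though its groups did not overlap. Of the called members, 5 changed by at least 2-fold, Psmd8, Psmd2, Psmb10, Psmg1 and Psmg3, where 36.6% of all genes did so.

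The direction of small changes depended on how the libraries were scaled. Scaling by library size alone moved the median of all genes by -0.43 on the log2 scale against TMM, upper-quartile scaling by -0.24, and removal of each library's trend with abundance by 0.10. With TMM 5510 genes were higher and 6275 lower, but by library size 3235 were higher and 8910 lower, by upper quartile 4241 and 7688, and with the trend removed 5609 and 5567. A member is said below to hold when it was called the same way under TMM, DESeq2 size factors, library size, upper quartile and trend removal. By that rule 10 members were higher in PP and 13 lower, together 23, where 20% of all genes tested held higher and 29.4% lower, in sum 49.4%. As shares of the 45 members these are 22.2% and 28.9%. The members that held higher were Psma5 and Psmb1 of the core, Psmd1, Psmd2, Psmd3, Psmd4, Psmd8, Psmd11 and Psmc6 of the cap, and the activator gene Psme4. Those that held lower were Psma4, Psmb3, Psmb5 and Psmb10, then Psmc3, Psmc4, Psmc5, Psmd6 and Psmd7, the assembly genes Psmg1, Psmg2 and Psmg3, and Psme3.

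**Figure D1:**
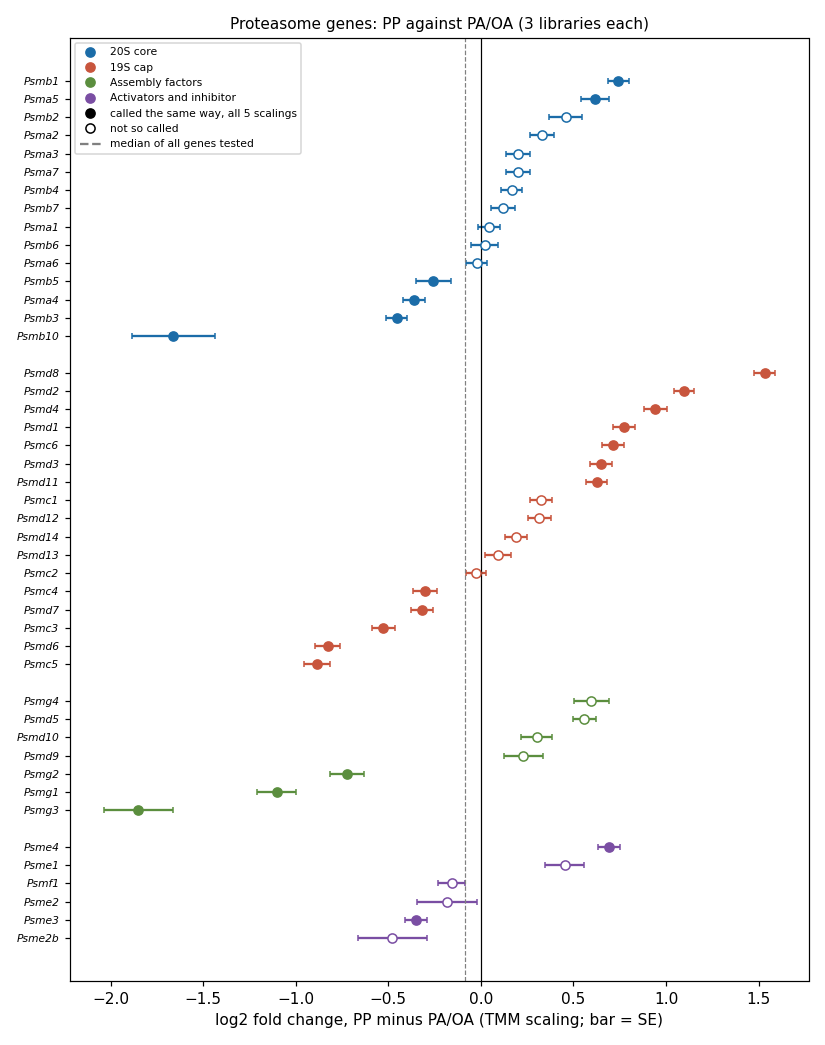
Log2 fold change (PP minus PA/OA, TMM scaling, horizontal axis) of the 45 tested members in 4 classes, with bars for the SE from edgeR over 3 libraries a group. Filled points were called the same way under all 5 scalings, and the dashed line is the median of all genes tested, -0.09; every class holds members on both sides of zero.

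Some promoter sequences are shown because coordinated control of proteasome genes is commonly traced to short elements near the start of transcription. RefSeq windows on GRCm38.p6, from 250 bases before to 50 bases after the start, were at hand for 39 class members in 42 windows. None was at hand for Psma8, Psmb1, Psmb2, Psmb7, Psmc3, Psmd3, Psmd7 or Psmg2. The core of the antioxidant response element, TGACNNNGC, read on both strands, was present in 6 of the 42 windows, which is 14.3%, and in 4071 of all 32851 windows, which is 12.4%. Stretches of up to 20 bases on either side of each match follow, 5′ to 3′ on the gene's strand, with the matched letters in capitals.

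Psmb5: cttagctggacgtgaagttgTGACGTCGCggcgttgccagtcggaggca
Psmb6: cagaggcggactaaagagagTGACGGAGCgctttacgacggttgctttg
Psmc6: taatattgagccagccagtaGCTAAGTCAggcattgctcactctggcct
Psmd9: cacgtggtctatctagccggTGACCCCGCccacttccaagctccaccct
Psmd12: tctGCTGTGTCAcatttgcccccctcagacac
Psme4: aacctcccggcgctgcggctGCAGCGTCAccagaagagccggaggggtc

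These lie at chr14:54618014-54618062 (minus strand) for Psmb5 and, all on the plus strand, at chr11:70525328-70525376 for Psmb6, chr14:45329577-45329625 for Psmc6, chr5:123228139-123228187 for Psmd9, chr11:107479278-107479309 for Psmd12 and chr11:30771748-30771796 for Psme4. The first base of the match was 47, 9, 227, 31, 247 and 7 bases before the start, in the same order. The 6 genes did not share a direction. Psmc6 and Psme4 held higher, Psmb5 held lower, and Psmb6, Psmd9 and Psmd12 did not hold either way. Of the windows, the element was in 2 of 8 belonging to members that held higher and in 1 of 10 belonging to members that held lower.

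The CCAAT box, searched as CCAAT and as its reverse complement ATTGG, was in 13 of the 42 windows, which is 31.0%, against 37.4% of all windows. In the window of Psmd14 a CCAAT match and an ATTGG match overlap. The box was in 1 of the 8 windows of members that held higher and in 2 of the 10 of members that held lower. The 250 bases before the start are shown for Psmd4, a cap gene that held higher, and for Psmb3, a core gene that held lower, since both carry the box. Capitals mark CCAAT on either strand.

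Psmd4: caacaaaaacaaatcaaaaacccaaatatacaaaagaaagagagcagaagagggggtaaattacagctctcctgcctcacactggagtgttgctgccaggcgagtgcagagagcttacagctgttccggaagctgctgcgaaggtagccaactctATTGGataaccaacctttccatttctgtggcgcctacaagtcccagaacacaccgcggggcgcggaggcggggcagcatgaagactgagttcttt
Psmb3: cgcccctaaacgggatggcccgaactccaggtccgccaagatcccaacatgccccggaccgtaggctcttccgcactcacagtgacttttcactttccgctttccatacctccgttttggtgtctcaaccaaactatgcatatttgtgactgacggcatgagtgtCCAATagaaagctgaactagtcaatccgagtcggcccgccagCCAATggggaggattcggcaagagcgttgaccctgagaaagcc

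The Psmd4 stretch is chr3:95042615-95042864 on the minus strand, with 1 box 95 bases before the start, and 2 more boxes lie after the start. The Psmb3 stretch is chr11:97703184-97703433 on the plus strand, with boxes 85 and 43 bases before the start. A match is a run of letters, not a shown binding site, and its part in the changes was not tested.

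Core genes split in direction. Of 15 tested, 7 were higher in PP, 4 were lower and 4 were not called. The called share of 73.3% was near the 75.0% of all genes tested. The median log2 fold change of the core was 0.12. That median was -0.31 by library size, -0.12 by upper quartile and -0.25 with the trend removed, so no direction can be given for the core as a whole. In the alpha ring 4 of 7 genes were higher and 1 was lower, with a median of 0.20. In the beta ring 3 of 8 were higher and 3 were lower, with a median of 0.07.

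Psmb1, a beta subunit without a protease site, rose most in the core. Its gene lies on chromosome 17 from 15475021 to 15499751 (coordinates as in the table, build mm10). It stood at 139, 143 and 154 CPM in the PA/OA libraries and at 233, 252 and 242 in the PP libraries. Every PP library was above every PA/OA library. The log2 fold change was 0.74 ± 0.06 (SE, n = 3 libraries a group; edgeR adjusted p = 9.07e-11). Psma5, an alpha subunit encoded on chromosome 3 from 108256926 to 108279974, stood at 48.3, 49.7 and 44.2 CPM in PA/OA and 68.6, 81.1 and 68.0 in PP. Here too the groups did not overlap, with a log2 fold change of 0.62 ± 0.08.

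Among the genes for the protease sites, Psmb10, the only inducible one in the set, changed more than the standard ones. Psmb10 encodes the interferon-inducible subunit that takes the place of the Psmb7 product in immunoproteasomes, and lies on chromosome 8 from 105935735 to 105938444. It was scarce, at 4.69, 5.20 and 5.65 CPM in PA/OA and 1.56, 1.59 and 1.75 in PP. The groups lay far apart, with a log2 fold change of -1.66 ± 0.22 (edgeR adjusted p = 7.45e-07). Psmb7, the trypsin-like subunit, stood at 67.8, 68.7 and 77.5 CPM in PA/OA and 77.3, 76.7 and 78.8 in PP. These values overlap, and the change of 0.12 was not called (edgeR adjusted p = 0.0991). Within each library the ratio of Psmb10 to Psmb7 per length is the same under any scaling by 1 factor per library, though not under trend removal, and went from 0.145 ± 0.00651 to 0.0422 ± 0.00205 (SD, n = 3).

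Psmb5 encodes the chymotrypsin-like subunit and lies on chromosome 14 from 54614119 to 54618022. Its levels were 33.3, 33.1 and 41.8 CPM in PA/OA and 31.2, 31.0 and 28.2 in PP. The PP libraries were all below the PA/OA libraries, but by little in most. The log2 fold change of -0.26 ± 0.09 was called (edgeR adjusted p = 0.0177) but not without PA/OA replicate 3 or without PP replicate 3, where values over single omissions ran from -0.31 to -0.14. Psmb6, the caspase-like subunit, stood at 98.7, 113 and 125 CPM in PA/OA and 107, 122 and 112 in PP, with overlap and a change of 0.02 that was not called (edgeR adjusted p = 0.813). The 3 genes of the standard protease sites thus had 1 call, lower in PP.

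Psmb3 and Psma4, structural subunits of the beta and alpha rings, fell. Psmb3 stood at 112, 123 and 123 CPM in PA/OA and 86.5, 87.8 and 86.2 in PP, a log2 fold change of -0.46 (edgeR adjusted p = 4.20e-07). Psma4 went from 88.1, 92.7 and 88.1 CPM to 67.1, 69.7 and 72.3, a change of -0.36 (edgeR adjusted p = 1.55e-05). In neither gene did the groups overlap. The ratio of Psmb1 to Psmb3 per length rose within libraries from 0.611 ± 0.0249 to 1.40 ± 0.0460 (SD, n = 3). The remaining core genes ran from -0.02 for Psma6 to 0.46 for Psmb2. Of these, Psma3, Psma7 and Psmb4 lost their calls when PA/OA replicate 1 was left out. Psma6 had the highest level per length of all members in PA/OA, 118 RPKM, and stood at 117 in PP.

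Tissue-restricted core genes were near or at 0. Psma8, an alpha subunit of testis on chromosome 18, had no count in any library, which allows a level of up to 0.0178 CPM, from 3 counts over the 6 libraries without scaling. Psmb11, the beta subunit of the thymus, had 2 counts in PA/OA replicate 1 and none elsewhere, and the limit over the PP libraries is 0.0327 CPM. Both limits cover counting error only. No fold was computed for either.

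**Figure D2:**
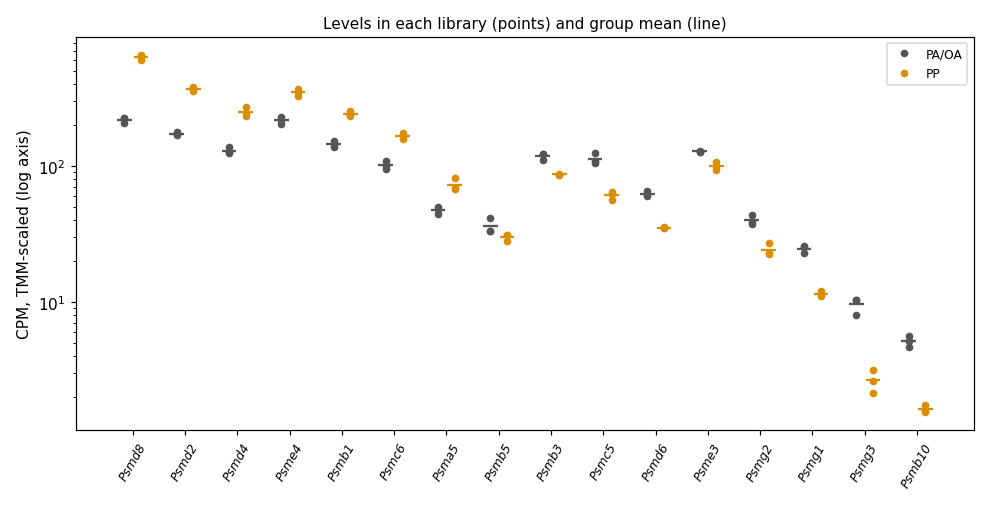
Level of 16 members in each library (points; vertical log axis, CPM after TMM scaling) with the group mean as a line. The 3 PP libraries lie above the 3 PA/OA libraries for Psmd8, Psmd2, Psmd4, Psme4, Psmb1, Psmc6 and Psma5 and below them for the rest.

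Most cap genes changed with TMM scaling, as did most genes tested. Of 17 tested, 10 were higher in PP, 5 were lower and 2 were not called, and 7 held higher and 5 held lower. The called share was 88.2%, against 75.0% of all genes tested. The shares that held higher and lower were 41.2% and 29.4%, against 20% and 29.4% of all genes. Their median log2 fold change was 0.32 with TMM, 0.08 by upper quartile, -0.12 by library size and -0.06 with the trend removed. Within the cap the scaffold and receptor genes Psmd1, Psmd2 and Psmd4 all held higher, with a median of 0.94. The 6 ATPase genes had 2 higher and 3 lower, with a median of -0.16, and the 8 lid genes had 5 higher and 2 lower, with a median of 0.25.

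Psmd8 rose more than any other member. It encodes a lid subunit that joins late in lid assembly, and lies on chromosome 7 from 29174188 to 29180701. Its levels were 208, 224 and 227 CPM in PA/OA and 607, 660.0 and 640.2 in PP. The lowest PP library was far above the highest PA/OA library. The log2 fold change was 1.53 ± 0.06 (SE; edgeR adjusted p = 3.73e-16). Per length it went from 71.9 to 208 RPKM and became the highest of all members in PP.

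The scaffold genes rose with it. Psmd2 encodes the large base subunit that docks ubiquitin shuttles and the deubiquitinase Usp14, and lies on chromosome 16 from 20651652 to 20663414. It stood at 170.4, 171 and 178 CPM in PA/OA and 358, 383 and 369 in PP, with a log2 fold change of 1.10 ± 0.05 (edgeR adjusted p = 3.32e-14). Psmd1, the other large scaffold of the base, stood at 75.0, 76.1 and 72.9 CPM in PA/OA and 133, 128 and 122 in PP, a change of 0.77. Groups did not overlap in either gene. Psmd4 encodes a ubiquitin receptor and lies on chromosome 3 from 95032694 to 95042614. It stood at 125, 128 and 138 CPM in PA/OA and 234, 271 and 246 in PP, with a log2 fold change of 0.94 ± 0.06 (edgeR adjusted p = 5.71e-12). The core gene Psmb4 lies 145732 bases from Psmd4 on the same chromosome, and its change was 0.17.

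The ATPase genes, whose products form 1 ring, went in opposite directions. Psmc5 lies on chromosome 11 from 106256154 to 106263120. It stood at 105, 109 and 125 CPM in PA/OA and 56.5, 64.8 and 62.2 in PP, and fell by 0.88 on the log2 scale (edgeR adjusted p = 2.48e-10). Psmc6, on chromosome 14 from 45329788 to 45349705, stood at 100.4, 109 and 95.0 CPM in PA/OA and 159, 175 and 166 in PP, a change of 0.71. Neither gene had overlapping groups, and the ratio of Psmc6 to Psmc5 per length went from 0.361 ± 0.0507 to 1.08 ± 0.0310 (SD, n = 3). Psmc3 fell from 97.7, 105 and 107 CPM to 68.8, 74.6 and 71.0, a change of -0.53 (edgeR adjusted p = 9.24e-08). Psmc4 changed by -0.30, and Psmc1 by 0.33 with TMM but by -0.11 by library size. Psmc2 did not pass the test, at -0.03 (edgeR adjusted p = 0.658). Per length Psmc5 had been the highest ATPase in PA/OA, at 81.1 RPKM. Psmc6 and Psmc2 were about level as the lowest, at 29.0 and 29.2. In PP Psmc5 stood at 43.9, Psmc6 at 47.5 and Psmc2 at 28.7. Over the ATPase genes the SD of log2 RPKM within a library was 0.58 ± 0.05 in PA/OA and 0.51 ± 0.02 in PP (SD over 3 libraries).

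Lid genes went both ways. Psmd6, a lid subunit gene on chromosome 14 from 14112174 to 14120984, stood at 62.4, 65.1 and 60.5 CPM in PA/OA and 35.7, 35.1 and 35.1 in PP. It fell by 0.83 on the log2 scale (edgeR adjusted p = 4.86e-10), with no overlap. Psmd7, which encodes the partner of the lid deubiquitinase, stood at 106, 116 and 114 CPM in PA/OA and 85.9, 90.8 and 92.5 in PP, a change of -0.32. Psmd14, the deubiquitinase itself, stood at 91.8, 102 and 95.4 CPM in PA/OA and 106, 111 and 112 in PP. Its groups did not overlap and its change of 0.19 was called (edgeR adjusted p = 0.00654), but it was -0.25 by library size, -0.05 by upper quartile and -0.16 with the trend removed. Psmd3 and Psmd11, structural lid subunits, changed by 0.65 and 0.63 and held higher. The ratio of Psmd8 to Psmd6 per length rose from 3.22 ± 0.204 to 16.5 ± 0.842, and that of Psmd8 to Psmd7 from 1.45 ± 0.0255 to 5.24 ± 0.131 (SD, n = 3). Within a library the SD of log2 RPKM over the 8 lid genes was 0.70 ± 0.04 in PA/OA and 1.15 ± 0.02 in PP. That wider spread includes Psmd8, at 208 RPKM in PP, where the next highest lid gene, Psmd7, stood at 39.7.

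**Figure D3:**
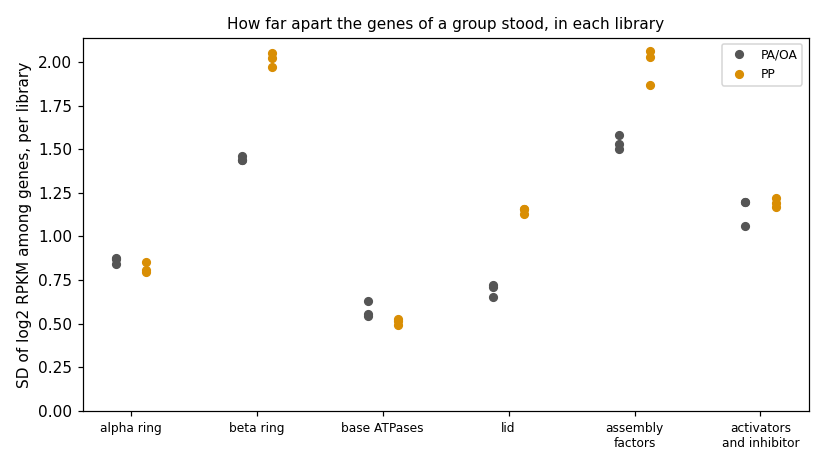
SD of log2 RPKM among the genes of each group (vertical axis, 1 point per library), which a single factor per library cannot change, though trend removal can. The lid, the beta ring and the assembly factors were more spread in all 3 PP libraries. In PP each of these had 1 gene far from the rest, Psmd8, Psmb10 and Psmg3 in that order. The alpha ring, the ATPases and the activators lay within 0.1 of each other in the group means.

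The wider spread of the beta ring, 1.45 in PA/OA and 2.01 in PP, includes Psmb10. Over the core genes of both rings without Psmb10 the SD was 0.75 ± 0.01 in PA/OA and 0.70 ± 0.03 in PP. Among the assembly genes Psmg3 was lowest in PP, at 0.916 RPKM, with Psmd9 next at 3.34. The spreads of the beta ring without Psmb10, the lid without Psmd8 and the assembly genes without Psmg3 were not computed. A divergence of those whole groups is thus not shown. All these spreads are descriptions of the member genes, with no test.

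Assembly factors went both ways, also among the chaperones of the core. The genes of chaperones for the core, Psmg1 to Psmg4, had 3 lower and 1 higher, with a median log2 fold change of -0.91. Those of chaperones for the base of the cap, Psmd5, Psmd9 and Psmd10, had 2 higher and none lower, with a median of 0.30. The lower calls held under all 5 scalings. The higher ones did not, and by library size Psmg4 was at 0.16 and Psmd5 at 0.12, both not called. Of all 7 assembly genes, 3 were higher, 3 were lower and 1 was not called, a called share of 85.7% against 75.0% of all genes. Their median was 0.23 with TMM, -0.01 by upper quartile and -0.21 by library size.

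Psmg1 and Psmg2 encode partners in a dimer that gathers the alpha subunits. Psmg1, on chromosome 16 from 95979933 to 95990960, stood at 22.8, 25.4 and 26.0 CPM in PA/OA and 11.2, 12.1 and 11.1 in PP, with a log2 fold change of -1.10 ± 0.10 (edgeR adjusted p = 3.43e-09). Psmg2 stood at 39.0, 43.4 and 37.7 CPM in PA/OA and 22.6, 27.4 and 22.8 in PP, a change of -0.72 (edgeR adjusted p = 3.30e-07). Both partners fell, with no overlap between groups.

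Psmg3 and Psmg4 encode a second dimer, and their mRNAs went opposite ways. Psmg3, on chromosome 5 from 139823592 to 139826885, stood at 8.10, 10.4 and 10.4 CPM in PA/OA and 2.15, 2.64 and 3.17 in PP, with a log2 fold change of -1.85 ± 0.19 (edgeR adjusted p = 1.05e-08). That is the largest fall of all members. Psmg4 stood at 17.9, 17.4 and 19.04 CPM in PA/OA and 26.1, 29.8 and 26.2 in PP, with a log2 fold change of 0.60 ± 0.10 (edgeR adjusted p = 8.25e-06). The ratio of Psmg4 to Psmg3 per length went from 9.94 ± 1.41 to 55.1 ± 10.6 (SD, n = 3), and did not overlap between groups. In the gene models 9.68% of Psmg3 exon bases also lie in another gene, so part of its count is uncertain.

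Among the base chaperones, Psmd5 stood at 60.5, 65.1 and 62.1 CPM in PA/OA and 88.8, 95.9 and 91.7 in PP, a change of 0.56 (edgeR adjusted p = 4.49e-08). Psmd10, also known as gankyrin, stood at 30.2, 36.0 and 34.6 CPM in PA/OA and 40.0, 43.8 and 40.4 in PP, a change of 0.30 with TMM and of -0.13 by library size. In both genes the PP libraries were above the PA/OA libraries. Psmd9 stood at 22.5, 17.9 and 21.5 CPM in PA/OA and 21.8, 24.9 and 25.9 in PP, which overlap, and its change of 0.23 was not called (edgeR adjusted p = 0.0524).

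**Figure D4:**
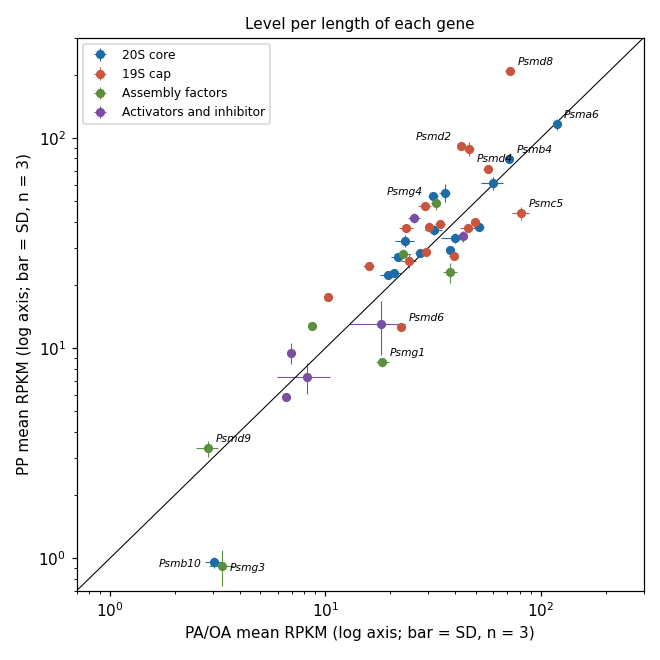
Mean level per length (RPKM, log axes) in PA/OA (horizontal) and PP (vertical) of the 45 tested members, with bars for the SD over 3 libraries and the line of equal level. Psmd8 lies furthest above the line, while Psmg3 and Psmb10 lie furthest below it and are also the lowest members in PP.

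The activator genes differed by kind. Psme4 encodes a large single-chain activator, and lies on chromosome 11 from 30771726 to 30880361. It stood at 217, 231 and 203 CPM in PA/OA and 350.1, 330.3 and 369 in PP, with a log2 fold change of 0.69 ± 0.06 (edgeR adjusted p = 5.71e-10). Psme3, the nuclear ring activator, stood at 127, 128 and 130 CPM in PA/OA and 100.2, 94.2 and 107 in PP, a change of -0.35 (edgeR adjusted p = 1.40e-05). Neither gene overlapped between groups, and the ratio of Psme4 to Psme3 per length went from 0.595 ± 0.0431 to 1.23 ± 0.0108 (SD, n = 3). Psmf1, the gene of the inhibitor PI31, stood at 44.1, 41.6 and 41.0 CPM in PA/OA and 38.3, 37.6 and 37.7 in PP. Its groups did not overlap, but the change of -0.16 was not called (edgeR adjusted p = 0.0565).

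Psme1 and Psme2 encode the alternating subunits of the interferon-inducible ring activator and lie 5911 bases apart on chromosome 14. Psme1 stood at 15.4, 15.1 and 15.4 CPM in PA/OA and 19.5, 23.7 and 19.7 in PP, with a log2 fold change of 0.45 ± 0.11 (edgeR adjusted p = 6.14e-04), which was 0.0165 and not called by library size. Psme2 stood at 19.3, 11.9 and 12.5 CPM in PA/OA and 13.8, 10.4 and 14.4 in PP, and its change of -0.18 was not called (edgeR adjusted p = 0.309). The per-length ratio of Psme1 to Psme2 ran from 0.640 to 1.01 in PA/OA and from 1.09 to 1.83 in PP. Psme2b, a copy on chromosome 11 very close to Psme2, stood at 10.7, 15.4 and 19.6 CPM in PA/OA and 9.43, 14.5 and 8.73 in PP. Its groups overlap, and its change of -0.48 ± 0.19 (edgeR adjusted p = 0.0248) was lost when any 1 of 4 libraries was left out, PA/OA replicate 2 or 3 or PP replicate 1 or 3, and with DESeq2 (adjusted p = 0.185). Reads of such copies can be split between them in counting, so both are uncertain. In each group the library with most Psme2b was not the library with most Psme2. Their sum was steadier, at 30.0, 27.3 and 32.1 CPM in PA/OA and 23.2, 24.9 and 23.1 in PP, where the groups did not overlap. The sum was taken after the values were seen and has no test.

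Abundance moved with these changes. Across the 45 members Spearman's rho between log2 fold change and mean log2 CPM was 0.53, and across all genes tested it was 0.46. These points share the same 6 libraries and their depth, and genes are not independent replicates. With the trend removed rho over the members was 0.28. Among genes above 64 CPM the median log2 fold change was 0.45 over 3617 genes, 67.0% of them higher and 20.7% lower in PP. The 30 members above 64 CPM had a median of 0.19, with 17 higher and 7 lower. The members from 8 to 64 CPM were 13, with a median of -0.16 and 5 called each way, where 5505 genes of that range had a median of 0.01. In both ranges the members' median was thus below that of all genes. The part of abundance in the changes was not tested.

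**Figure D5:**
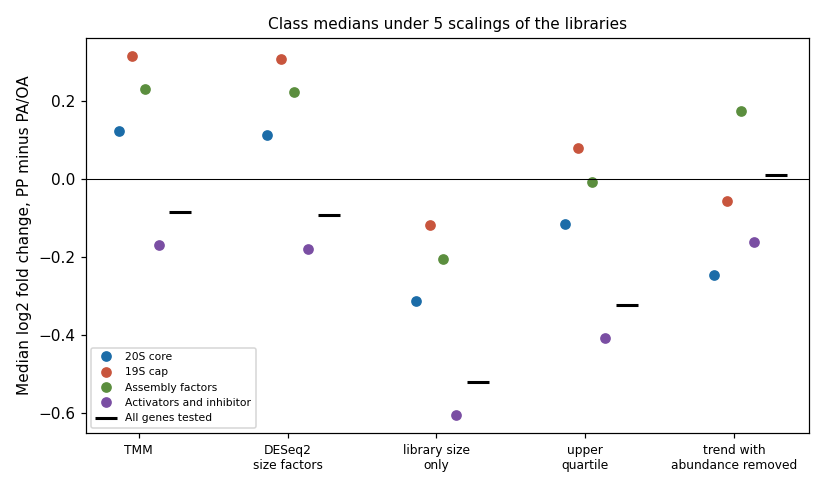
Median log2 fold change (PP minus PA/OA, vertical axis) of each class and of all genes tested (black bars) under 5 scalings of the libraries. The core median is 0.12 with TMM and -0.31 by library size, and with the trend removed the core, cap and activator medians lie below that of all genes.

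Summed over members, the 4 classes took 0.446% ± 0.0111 of all counts in PA/OA and 0.428% ± 0.00806 in PP (SD, n = 3). After TMM scaling the sum was 3839 ± 114 CPM in PA/OA and 4981 ± 143 in PP, a ratio of 1.30. The mean share of counts was thus lower in PP while the scaled sum was higher. Only the scaled sums were apart in every library. The shares overlapped, at 0.4337% to 0.4555% in PA/OA and 0.419% to 0.4344% in PP. Per length the sum was 1483 ± 57.1 RPKM in PA/OA and 1752 ± 68.4 in PP, a ratio of 1.18. By class the ratio of summed CPM was 1.46 for the cap, 1.11 for the core, 1.07 for assembly factors and 1.23 for activators, and that of summed RPKM was 1.35, 1.07, 0.995 and 1.02. For assembly factors the libraries of the groups overlapped in summed CPM and in summed RPKM, so no direction can be given for their sum. In CPM the scaffold and receptor genes reached 1.98, the lid 1.60 and the Psmg chaperones 0.711, and in RPKM 1.99, 1.56 and 0.886. As shares of counts the cap went from 0.223% to 0.241% and the core from 0.148% to 0.122%. The summed level of the cap relative to the core was thus higher in PP under the 4 scalings that use 1 factor per library. That rise was not shared across the cap, since the ATPase sum had ratios of 0.982 in CPM and 0.909 in RPKM. Psmd8, Psmd2 and Psmd4 weigh most in it, with Psmd8 alone going from a mean of 220 to 636 CPM. These sums were not taken with the trend removed.

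On chromosome 11 the members went both ways. It holds 10 of the 48, Psmc3ip included, among them Psme4, Psmd3 and Psmd11, which held higher, and Psmb3, Psmc5 and Psme3, which held lower. The part of position in the changes was not tested. Another annotated gene lies over 22 of the 48 members in the table, and the use of strand in counting was not stated in the sources at hand. In the GENCODE M21 models 35 members share no exon base with another gene, and 5 share more than 10%, Psmd9, Psmc3ip, Psmb5, Psmb7 and Psmd13. Psmc3ip itself stood at 5.04 and 3.85 CPM and was not called, at -0.38 (edgeR adjusted p = 0.105).

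Proteasome genes outside the naming pattern were 8 by list, of which 7 were tested and Paaf1 was not analysed here. With TMM all 7 were higher in PP, with a median log2 fold change of 0.54, and 3 held. Of all genes tested 35.1% were higher and 20% held higher. Txnl1, a thioredoxin-like protein bound to the cap, changed by 1.37, Uchl5, a cap deubiquitinase, by 1.16, and Adrm1, the ubiquitin receptor that recruits it, by 0.73. Pomp, which guides core maturation, changed by 0.54, Sem1, the small lid subunit, by 0.46, and Usp14, a deubiquitinase on Psmd2, by 0.22, or -0.19 with the trend removed. Ecpas, a scaffold that bridges core and cap, changed by 0.12 (edgeR adjusted p = 0.0447), a call lost without PA/OA replicate 1, PA/OA replicate 3 or PP replicate 2, and with DESeq2 size factors (adjusted p = 0.0631), and was at -0.34 with the trend removed. By library size 3 of the 7 were higher and 2 lower, and with the trend removed 5 were higher and 2 lower.

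Genes for the transcriptional control of the proteasome did not rise as a list. Of 7, 2 were higher and 3 were lower, where 35.1% of all genes tested were higher and 39.9% lower. The median of the list was -0.06, and by library size 6 were lower. Nfe2l1 itself fell by 0.17, a call lost without PP replicate 3, Ngly1, the enzyme that removes sugars from its product, by 0.72, and Vcp, the ATPase that extracts it from the membrane, by 0.40, and all 3 held over the scalings. Nfe2l2, which encodes the related factor NRF2, changed by 0.37 with TMM but by -0.0663 by library size and -0.0594 with the trend removed. The polyubiquitin gene Ubb changed by 1.45 and held higher. Among the genes of shuttle factors, which carry ubiquitinated proteins to the proteasome, Ubqln1 changed by 1.07, Rad23b by 0.85 and Ubqln2 by 0.78, and these 3 held higher. Ubqln4 fell by 0.20, a call lost without PA/OA replicate 1 or PP replicate 2.

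Genes that load proteasome products onto class I molecules also went both ways. Of 7 on the list, Tap1 and Tap2, the peptide transporter, were too low to test. Among the 5 tested, B2m, the light chain of class I molecules, changed by 1.30 and Tapbp, tapasin, by 1.27, while Erap1, which trims peptides, fell by 1.21. The other 2 were not called. Over all genes tested 35.1% were higher and 39.9% lower, so calls in both directions were common. The interferon-inducible members thus had Psmb10 lower, Psme1 higher and Psme2 not called.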

How the data were processed

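Total RNA of 6 AML12 libraries, 3 per group, was sequenced. The authors deposited unnormalized counts for each gene with symbols, biotypes, exon lengths and coordinates. Per the submitters' processing notes featureCounts, DESeq2 1.16.1 and build mm10 were used, with no role given. The aligner, the annotation and any use of strand: not given in the sources used here. Among genes with 1 to 20 counts, 57.1% to 61.5% were even, a pattern that counting both mates of a pair can give, so counting limits may be too narrow.

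The analysis used edgeR 4.0.16 in R 4.3.3: filterByExpr (15718 genes kept), TMM, and the two-sided quasi-likelihood test (glmQLFit, glmQLFTest), with Benjamini-Hochberg adjustment over all genes tested and a threshold of 0.05. The scripts were tested on simulated data. Alternatives used DESeq2 1.42.0, limma 3.58.1 (voom), 4 other scalings, 2 other filters, protein-coding genes only, halved counts, a replicate block and omission of each library. Trend removal used a lowess curve (span 0.4) per library. RPKM came from CPM and the table's length. No 2 libraries of a group agreed within sampling noise, so each counted as 1 replicate. Promoter windows are from RefSeq on GRCm38.p6, whose coordinates equal those of mm10.

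Members and gene lists were chosen with earlier results of these data known. In each class the text names the 4 called members with the largest change, up to 3 in the rarer direction, genes of the protease sites, receptors, activators and Psmg chaperones, untested members, proteasome genes outside the name pattern, and up to 3 genes of the smallest p in other lists; further genes were named after their values were seen. Some genes of the pathway lists, and the counts over those lists, are not reported here.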

Additional observations from a re-analysis of the deposited data

How the results depend on the processing

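Over all genes, 3235 were higher by library size against 5510 with TMM. Of 15 core genes, 7 were higher and 4 lower; library size gave 2 and 11, upper quartile 3 and 7, trend removal 3 and 10, and protein-coding genes only 4 higher. Omitting single libraries gave 4 to 8 higher. The core median of 0.12 became -0.31, -0.12, -0.25 and 0.0389 in that order, and ran from 0.0877 to 0.19 over omissions. Cap genes lower numbered 5, and 8 by library size and by trend removal. Their median of 0.32 became -0.12 by library size, -0.0578 by trend removal, 0.0776 by upper quartile, 0.26 with a 1 CPM filter and 0.23 with protein-coding genes only (omissions 0.29 to 0.37). Assembly genes higher fell from 3 to 0 by library size. Their median of 0.23 became -0.21 by library size, -0.0081 by upper quartile and 0.15 with protein-coding genes only (omissions 0.14 to 0.32). Activator genes higher were 1 by library size and by upper quartile. Those lower were 4 by both and 1 with DESeq2 (omissions 1 to 2). Their median of -0.17 became -0.61, -0.41, -0.23 with a 1 CPM filter, -0.25 with protein-coding genes only and -0.20 with halved counts (omissions -0.24 to -0.0243). The cause of these moves was not tested.

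Signs of small changes turned under some settings. By library size they were -0.39 for Psma1, -0.10 for Psma2, -0.23 for Psma3, -0.24 for Psma7, -0.27 for Psmb4, -0.42 for Psmb6, -0.31 for Psmb7, -0.11 for Psmc1, -0.12 for Psmd12, -0.34 for Psmd13, -0.25 for Psmd14, -0.13 for Psmd10 and -0.21 for Psmd9. By upper quartile they were -0.19 for Psma1, -0.0368 for Psma3, -0.038 for Psma7, -0.0703 for Psmb4, -0.22 for Psmb6, -0.12 for Psmb7, -0.15 for Psmd13, -0.0488 for Psmd14 and -0.0081 for Psmd9. With the trend removed they were -0.27 for Psma1, -0.11 for Psma3, -0.16 for Psma7, -0.25 for Psmb4, -0.35 for Psmb6, -0.17 for Psmb7, -0.0578 for Psmc1, -0.0141 for Psmd12, -0.23 for Psmd13, -0.16 for Psmd14 and 0.0016 for Psmc3ip. A 1 CPM filter gave -0.0101 for Psma1 and -0.0334 for Psmb6, protein-coding genes only -0.0385 and -0.0619, and halved counts -0.0096 for Psmb6. Over omissions Psma6 ran from -0.0545 to 0.0321, Psmb6 from -0.0635 to 0.11, Psmc2 from -0.0584 to 0.0046 and Psme2 from -0.31 to 0.0750.

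Libraries with the same number did not deviate together (correlations of 0.00713, 0.00127 and -0.0413). Pairing by number was thus not seen, though 3 libraries a group cannot exclude it. With the replicate number as a block, 5427 genes were higher and 6088 lower, and all 46 tested members kept their call. Depth limits Psma8 and Psmb11, which had too few counts to test.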
